A study of Mus musculus with 20 samples.

Results

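The question was whether loss of the catalytic domain of Kmt2d alters how ATDC5 cells respond to 7 days of chondrogenic differentiation. All 20 of the 20 sequenced samples entered the comparison. They are 10 libraries of 5 clonal lines, each run on 2 flow cells, and the runs were summed. For every clone the change of a gene was taken as log2 CPM (counts scaled to library size) at day 7 minus that at day 0, and the changes of the 2 Kmt2d-/- clones were set against those of the 3 Kmt2d+/+ clones. The differences between genotypes on a single day and the response of a single genotype were not tested.

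The groups were Kmt2d-/- clones at day 0 and day 7 (clones 1 and 2, labelled 10-7 and 96-9) and Kmt2d+/+ clones at day 0 and day 7 (clones 1, 2 and 3, labelled 10-5, 10-7 and 10-8). The mutant lines lack the SET domain on both alleles, and every clone is a separate stable line of the mouse chondrogenic cell line ATDC5. Day 0 cells were undifferentiated. Day 7 cells had been kept in medium with insulin, transferrin, selenium, ascorbic acid and beta-glycerophosphate. With so few clones for each genotype, p-values measure the spread between these clones. In the gene-wise tests of edgeR, limma and DESeq2, part of that spread is borrowed from other genes. The summed libraries held 35792773 to 66237188 estimated counts.

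ATDC5 cells come from a mouse teratocarcinoma and form cartilage-like cells when given insulin. In this programme the transcription factor Sox9 drives the genes of type II collagen and aggrecan, and later steps bring in the genes of hypertrophy and mineralization. KMT2D is a histone methyltransferase that places methyl groups on lysine 4 of histone H3, largely at enhancers, and mutations in the human gene cause Kabuki syndrome, in which growth is reduced.

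Of the 20 genes named below for the smallest p in either direction, 15 had a promoter in the RefSeq table (build GRCm38.p6), and the first listed for each was used. The 250 bases before the start are printed for the gene with the smallest p in each direction among these, Matn4 and Ednra, because these 2 genes also have the widest genotype gaps at day 7 on either side among the 20. The capitals mark CG dinucleotides, a letter pair that is dense in CpG-island promoters.
Matn4: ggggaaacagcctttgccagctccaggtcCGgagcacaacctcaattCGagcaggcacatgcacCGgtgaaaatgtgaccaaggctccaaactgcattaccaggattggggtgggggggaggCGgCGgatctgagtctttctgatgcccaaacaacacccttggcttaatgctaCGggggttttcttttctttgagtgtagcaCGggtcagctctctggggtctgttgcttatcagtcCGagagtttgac
Ednra: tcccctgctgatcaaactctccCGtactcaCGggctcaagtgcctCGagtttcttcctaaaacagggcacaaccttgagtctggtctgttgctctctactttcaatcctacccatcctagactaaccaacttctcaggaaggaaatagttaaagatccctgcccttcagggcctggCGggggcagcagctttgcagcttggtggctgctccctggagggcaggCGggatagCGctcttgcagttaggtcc
The windows lie on the minus strand at chr2:164405161-164405410 for Matn4 and chr8:77724453-77724702 for Ednra. They hold 8 and 6 CG dinucleotides, at the low end of the 6 to 36 seen over the 15 promoters (median 14). The median over the 11205 promoters of tested genes was 15, with quartiles of 8 and 22. The core of the SOX motif (ACAAT, or ATTGT on the other strand) occurred in neither window. Both strands were searched and the letters do not overlap another motif searched. The core occurred in 1 of the 15 windows, that of Pgm5, and in 18.7% of the 11205.

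The size of the response overlapped between genotypes. The median absolute log2 change over 15467 tested genes was 0.361 and 0.378 in Kmt2d-/- clones 1 and 2, against 0.506, 0.308 and 0.418 in Kmt2d+/+ clones 1, 2 and 3. The mean was 0.369 ± 0.0124 (SD, n = 2) in Kmt2d-/- and 0.410 ± 0.0994 (SD, n = 3) in Kmt2d+/+ clones. The Kmt2d+/+ clones lie on both sides of the mutant pair, and the difference of -0.041 had an exact two-sided permutation p = 0.7 where the smallest p that 2 against 3 allows is 0.1. A change of more than 2-fold was seen in 2884 and 2882 genes of the Kmt2d-/- clones, against 3721, 2505 and 3084 genes of the Kmt2d+/+ clones. The changes of one clone also resembled those of another across genotypes. Pearson's r across genes, which are not independent replicates, was 0.616 between the Kmt2d-/- clones, 0.503 to 0.596 over the 6 pairs of unlike genotype and 0.504 to 0.692 over the 3 Kmt2d+/+ pairs. By Spearman's rho the Kmt2d-/- pair had 0.508, below 0.555 and 0.531 for Kmt2d-/- clone 2 with Kmt2d+/+ clones 1 and 3. By Pearson's r, the lowest Kmt2d+/+ pair (clones 1 and 2, r = 0.504) thus lay within the range of the pairs of unlike genotype.

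No gene passed the test of a genotype-dependent change in edgeR. Of 15467 genes, 0 had an edgeR adjusted p under 0.05 (0% in each direction), and the smallest adjusted p was 0.157. At an unadjusted p under 0.05 there were 1286 genes (8.31%), 535 of them with a change above that of the Kmt2d+/+ clones (3.46%) and 751 with a change below it (4.86%). DESeq2 with the same terms called 262 genes (1.69%), 107 above (0.692%) and 155 below (1%), whereas limma-voom and limma on the per-clone differences called 0, with 1439 and 1425 genes at an unadjusted p under 0.05. The fit had 3 residual degrees of freedom, and the genes described here are those with the smallest p and not genes shown to differ. In the description, a positive difference means that log2 CPM increased more, or decreased less, in the Kmt2d-/- clones.

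**Figure D1:**
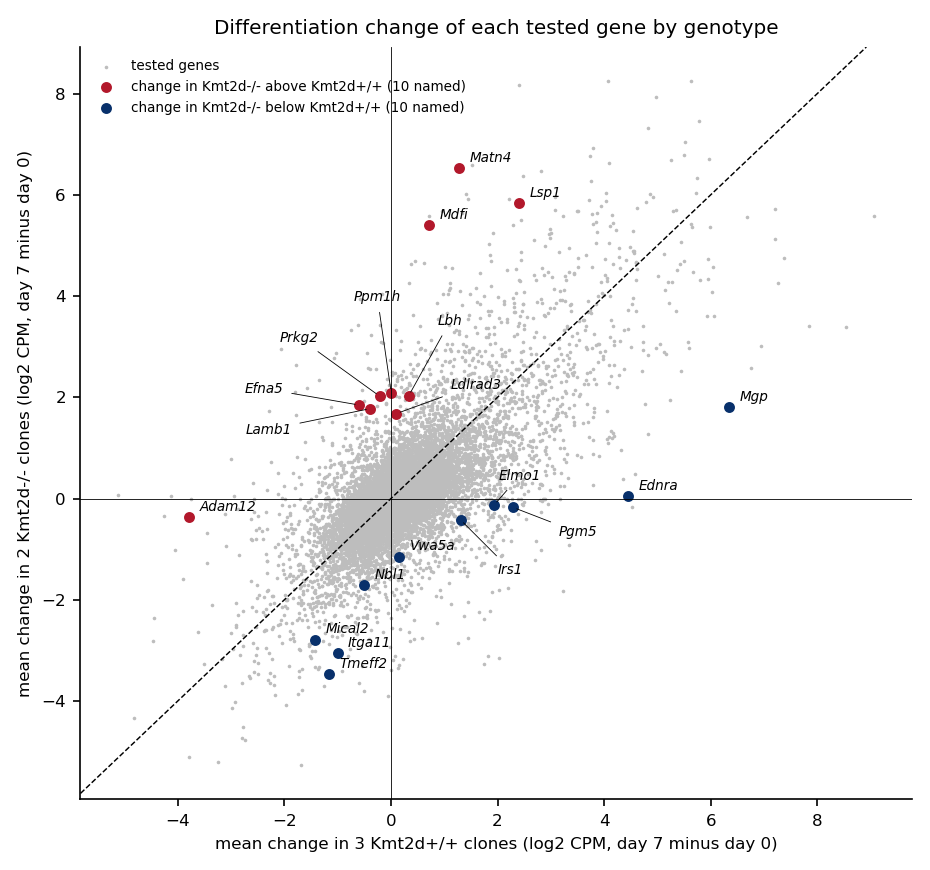
Mean log2 CPM change (day 7 minus day 0) of each of 15467 tested genes in 2 Kmt2d-/- clones (vertical) against 3 Kmt2d+/+ clones (horizontal), with 10 named genes on each side of the dashed line of equal change. Matn4, Lsp1 and Mdfi stand far above the line and Mgp and Ednra far below it.

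The changes of both Kmt2d-/- clones lay above those of all Kmt2d+/+ clones for 1924 genes (12.4%) and below them for 2231 (14.4%). Each outcome is 1 of the 10 arrangements of 2 against 3 clones. About 1 in 10 genes is thus expected in each direction with no genotype effect. In 329 genes (2.13%) both Kmt2d-/- clones had a positive and all Kmt2d+/+ clones a negative change, and in 426 (2.75%) the signs were the other way. The median difference over all tested genes was -0.02, and 47.5% of differences were positive. Kmt2d itself had 205.2 and 148 CPM on day 0 and 174.8 and 113.3 CPM on day 7 in Kmt2d-/- clones, against 210.8, 185.4 and 194.6 CPM on day 0 and 186.7, 173.3 and 207 CPM on day 7 in Kmt2d+/+ clones. Its log2 changes were -0.23 and -0.39 in the Kmt2d-/- clones, against -0.17, -0.10 and 0.09 in the Kmt2d+/+ clones, a difference of -0.25 (SE 0.16, edgeR adjusted p = 0.697). These counts span the whole gene and so do not check the deletion.

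The 10 genes with the largest support for a higher change in Kmt2d-/- clones were a matrilin, a cGMP kinase, matrix and adhesion genes and regulators. None of them passed in edgeR (adjusted p 0.157 to 0.196) and all 10 passed in DESeq2. They were Prkg2, Matn4, Lsp1, Ldlrad3, Adam12, Ppm1h, Lbh, Lamb1, Efna5 and Mdfi. Prkg2 (chr5:98929773-99037351, build GRCm38), the type II cGMP-dependent kinase that acts in growth plate chondrocytes, had 18.7 and 14.3 CPM on day 0 and 82.3 and 53.9 CPM on day 7 in Kmt2d-/- clones 1 and 2. In Kmt2d+/+ clones 1, 2 and 3 it had 27.4, 41.1 and 31.0 CPM on day 0 and 19.8, 38.1 and 29.9 CPM on day 7. Every Kmt2d-/- clone was higher at day 7, and every Kmt2d+/+ clone was slightly lower. The difference of changes was 2.24 (SE 0.20, edgeR adjusted p = 0.157; DESeq2 adjusted p = 1.32e-15).

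Matn4 (chr2:164389393-164405160), the matrilin-4 gene of the cartilage matrix whose promoter is printed above, had 0.411 and 0.161 CPM on day 0 and 43.6 and 17.4 CPM on day 7 in Kmt2d-/- clones. In Kmt2d+/+ clones it had 0.200, 0.0928 and 0.169 CPM on day 0 and 0.888, 0.236 and 0.327 CPM on day 7. It was near absent at day 0 in all 5 clones and stayed under 1 CPM in the Kmt2d+/+ clones. The difference was 5.23 (SE 0.48, edgeR adjusted p = 0.157). Lsp1, an actin-binding protein gene first described in lymphocytes, was also higher at day 7 in all clones, by 6.39 and 5.30 in Kmt2d-/- against 2.33, 2.66 and 2.25 log2 units in Kmt2d+/+ clones (edgeR adjusted p = 0.157). Its level at day 7 overlapped between genotypes, at 73.8 and 15.9 CPM in Kmt2d-/- and 19.7, 38.9 and 21.5 CPM in Kmt2d+/+ clones. The wider change came with lower levels at day 0, of 0.845 and 0.367 CPM against 3.90, 6.13 and 4.49 CPM.

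Adam12, a metalloprotease gene whose product can cleave IGF-binding proteins, was the one of these 10 with a smaller change in the mutant. It had 5.58 and 3.16 CPM on day 0 and 4.60 and 2.27 CPM on day 7 in Kmt2d-/- clones, against 26, 8.96 and 15.2 CPM on day 0 and 1.37, 0.501 and 1.73 CPM on day 7 in Kmt2d+/+ clones. The steep decline of all Kmt2d+/+ clones had no counterpart in the Kmt2d-/- clones, and the difference was 3.46 (SE 0.43, edgeR adjusted p = 0.196). Mdfi, an inhibitor of the MyoD family of factors, had changes of 6.15 and 4.66 in Kmt2d-/- against 1.61, 0.25 and 0.29 in Kmt2d+/+ clones. Its difference of 4.97 ran from 4.23 to 5.55 when clones were left out in turn, and it was the 1 gene of the 20 to move over 1.5-fold in this way. With flow-cell run 1 or run 2 alone the difference was 6.94 and 3.65 for Mdfi and 4.36 and 2.53 for Adam12, and with run 1 alone it was 5.92 for Matn4.

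In the remaining 5 genes the Kmt2d+/+ clones changed by less than 1 log2 unit. Ldlrad3, a receptor of the LDL receptor family, had 1.86 and 1.5 in Kmt2d-/- against 0.13, 0.12 and 0.05 in Kmt2d+/+ clones. The phosphatase gene Ppm1h had 1.89 and 2.29 against -0.13, 0.42 and -0.27, and Lbh, a transcription cofactor of limb bud and heart, had 2.08 and 1.98 against 0.30, 0.07 and 0.63. Lamb1, the beta 1 chain of laminin, had 1.75 and 1.81 in Kmt2d-/- against -0.84, 0.10 and -0.42 in Kmt2d+/+ clones, and Efna5, the ephrin-A5 ligand, had 2.24 and 1.45 against -0.89, -0.63 and -0.26. In all 5 the Kmt2d-/- clones were at least 1.45 log2 units higher at day 7.

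**Figure D2:**
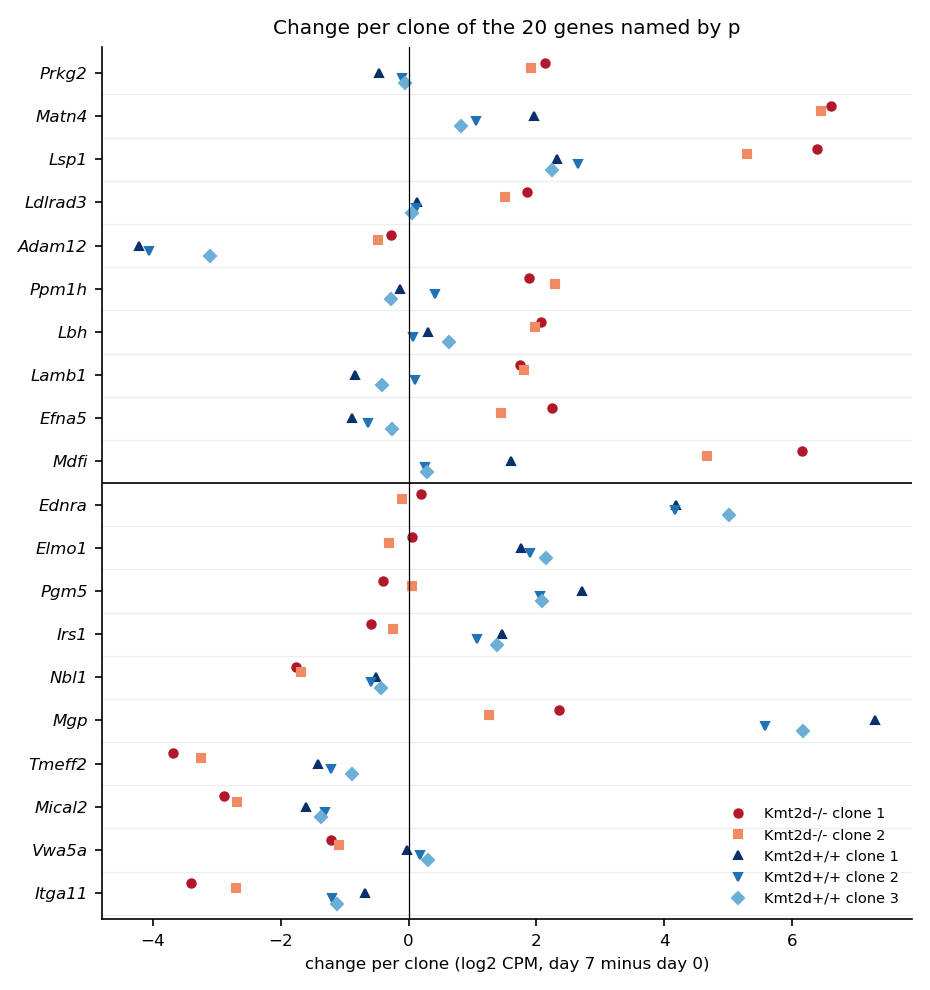
Log2 CPM change (day 7 minus day 0) of each clone for the 20 named genes, 10 above and 10 below the horizontal line, with Kmt2d-/- clones in red and orange and Kmt2d+/+ clones in blue. By the naming rule the Kmt2d-/- and Kmt2d+/+ clones do not overlap in any row, with Ednra near 0 in Kmt2d-/- and above 4 in Kmt2d+/+ clones.

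The 10 genes with a lower change in Kmt2d-/- clones were Ednra, Elmo1, Pgm5, Irs1, Nbl1, Mgp, Tmeff2, Mical2, Vwa5a and Itga11 (edgeR adjusted p 0.157 to 0.196, all 10 passing in DESeq2). Ednra (chr8:77663031-77724464), the endothelin receptor A gene whose promoter is printed above, had 0.0966 and 1.01 CPM on day 0 and 0.115 and 0.935 CPM on day 7 in Kmt2d-/- clones. In Kmt2d+/+ clones it had 0.172, 0.325 and 1.20 CPM on day 0 and 3.78, 6.47 and 39.96 CPM on day 7. All Kmt2d+/+ clones were higher at day 7 by over 4 log2 units, and neither Kmt2d-/- clone moved by more than 0.19. The difference was -4.67 (SE 0.44, edgeR adjusted p = 0.157).

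Mgp (chr6:136872435-136875823), the matrix Gla protein that holds back mineralization, had 21.6 and 17.5 CPM on day 0 and 111.1 and 42.1 CPM on day 7 in Kmt2d-/- clones. In Kmt2d+/+ clones it had 0.659, 4.55 and 1.58 CPM on day 0 and 109.8, 218.8 and 117 CPM on day 7. It was higher at day 7 in all clones, and the genotypes did not overlap at day 0 but did so in part at day 7. The difference was -4.45 (SE 0.56, edgeR adjusted p = 0.196). Elmo1 (chr13:20090596-20608353), a Rac activator of cell movement and engulfment, also had a higher level at day 0 in the mutant, with 39.2 and 45.5 CPM on day 0 and 40.6 and 36.9 CPM on day 7 in Kmt2d-/- clones. In Kmt2d+/+ clones it had 6.39, 10.9 and 12.6 CPM on day 0 and 21.8, 40.7 and 55.6 CPM on day 7, so that the mutant clones lay within the day 7 range of the wild-type clones on both days.

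Pgm5, a phosphoglucomutase-like protein of cell adhesions, had changes of -0.41 and 0.06 in Kmt2d-/- against 2.71, 2.06 and 2.09 in Kmt2d+/+ clones. Nbl1, a secreted BMP antagonist of the DAN family, had -1.76 and -1.68 in Kmt2d-/- against -0.51, -0.58 and -0.43 in Kmt2d+/+ clones. Pgm5 was higher at day 7 by over 2 log2 units in all Kmt2d+/+ clones, and Nbl1 was lower in all clones. Tmeff2, a transmembrane protein with follistatin modules, had -3.68 and -3.24 against -1.42, -1.21 and -0.88, and Itga11, the alpha 11 integrin chain of a collagen receptor, had -3.41 and -2.71 against -0.69, -1.19 and -1.11. The actin-oxidizing enzyme gene Mical2 had -2.89 and -2.68 in Kmt2d-/- against -1.61, -1.30 and -1.37 in Kmt2d+/+ clones, and Vwa5a, which encodes a protein with a von Willebrand factor A domain, had -1.20 and -1.09 against -0.02, 0.19 and 0.31. Nbl1, Tmeff2, Itga11 and Mical2 were lower at day 7 in all clones, and by more in the mutant.

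**Figure D3:**
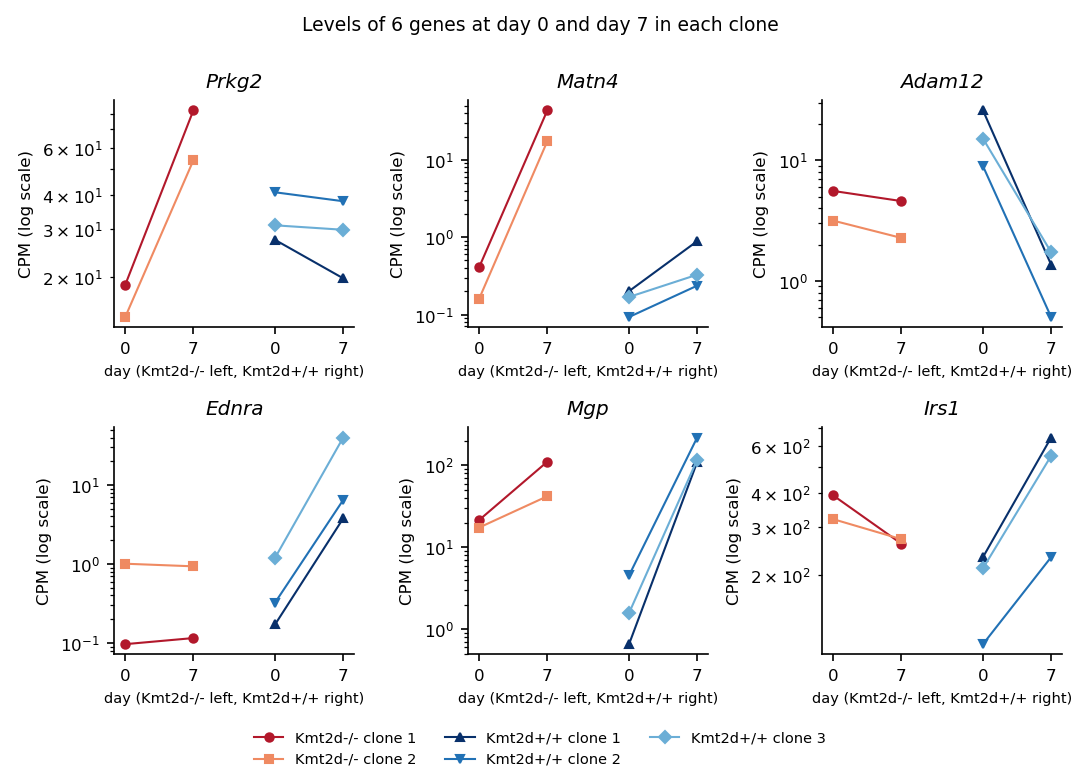
CPM on a log scale at day 0 and day 7, joined by clone, for 6 of the named genes, with Kmt2d-/- clones at the left of each panel and Kmt2d+/+ clones at the right. Matn4 climbs steeply in Kmt2d-/- clones, Ednra in Kmt2d+/+ clones, and Mgp starts at 21.6 and 17.5 CPM in Kmt2d-/- against 0.659 to 4.55 CPM in Kmt2d+/+ clones.

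A difference of changes equals the genotype gap at day 7 minus the gap at day 0, so it can come from a gap that opens, closes or turns over. For 13 of the 20 named genes the mean of the Kmt2d-/- clones stood on opposite sides of the Kmt2d+/+ mean on the 2 days, for 6 the gap was on the same side and wider at day 7, and for 1 (Elmo1) it was narrower. Of the 262 genes of DESeq2, 162 turned over (61.8%), 57 widened (21.8%) and 43 narrowed (16.4%), against 26.2%, 35.5% and 38.3% of all tested genes. A large difference of changes makes a turn more likely by arithmetic, so these shares are a description. Prkg2 turned over, with a gap of -1.02 at day 0 and 1.24 log2 units at day 7. Matn4 opened, with 0.66 at day 0 and 5.93 at day 7, and Elmo1 closed, with 2.11 and 0.08. By mean change, 7 of the 20 genes ran in opposite directions in the genotypes (35%, against 25.8% of all tested genes). Another 10 ran the same way with a larger change in Kmt2d-/- clones (50%, against 33.9%), and 3 with a smaller one (15%, against 40.3%). The genes were named by p, so these shares are a description too. Ppm1h (mean 0.006 in Kmt2d+/+ clones) and Ednra (mean 0.04 in Kmt2d-/- clones) were classed by a mean near 0.

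The defining chondrocyte genes had log2 changes that overlapped between the genotypes. Col2a1, the type II collagen gene, had 2533 and 806.4 CPM on day 0 and 20470 and 24450 CPM on day 7 in Kmt2d-/- clones. In Kmt2d+/+ clones it had 2.72, 34.4 and 8.66 CPM on day 0 and 332.2, 125.6 and 252.5 CPM on day 7. The changes of 3.01 and 4.92 in Kmt2d-/- clones lay within the 6.91, 1.87 and 4.86 of the Kmt2d+/+ clones. The difference was -0.59 (SE 1.49, edgeR adjusted p = 0.929) and ran from -1.87 to 0.62 when clones were left out. In linear units the same gene gained 20790 ± 4035 CPM (SD, n = 2) in Kmt2d-/- and 221.5 ± 120.7 CPM (SD, n = 3) in Kmt2d+/+ clones, with no overlap and the smallest exact two-sided permutation p the design allows, 0.1. The clones thus overlapped on the log2 scale and did not overlap on the linear scale.

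Acan, the aggrecan gene, had 93.41 and 5.113 CPM on day 0 and 933.1 and 450.4 CPM on day 7 in Kmt2d-/- clones. In Kmt2d+/+ clones it had 0.1145, 8.495 and 0.7165 CPM on day 0 and 39.57, 24.37 and 13.58 CPM on day 7. Its log2 changes were 3.32 and 6.45 in Kmt2d-/- against 8.02, 1.52 and 4.17 in Kmt2d+/+ clones (difference 0.94, SE 1.83, edgeR adjusted p = 0.902). The 8.02 of Kmt2d+/+ clone 1 starts from 0.1145 CPM, so it rests on few counts and depends on the prior count. Its gain was 642.5 ± 278.9 CPM (SD, n = 2) in Kmt2d-/- and 22.7 ± 14.6 CPM (SD, n = 3) in Kmt2d+/+ clones (exact permutation p = 0.1). Sox9, the master regulator of chondrocytes, had 155.3 and 174.8 CPM on day 0 and 409.1 and 480.9 CPM on day 7 in Kmt2d-/- clones. In Kmt2d+/+ clones it had 33.73, 69.35 and 21.22 CPM on day 0 and 228.3, 115.6 and 96.06 CPM on day 7. Its log2 changes were 1.40 and 1.46 in Kmt2d-/- against 2.76, 0.74 and 2.18 in Kmt2d+/+ clones (difference -0.47, SE 0.56, edgeR adjusted p = 0.824). Its gain was 279.9 ± 37.0 CPM (SD, n = 2) in Kmt2d-/- and 105.2 ± 78.7 CPM (SD, n = 3) in Kmt2d+/+ clones (exact permutation p = 0.2). All 3 defining genes had counts in every library, and every clone had more of each at day 7. In a bulk library, fewer cells of a type and less RNA per cell cannot be told apart.

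Shox2, the limb homeobox gene, had changes of -2.13 and 0.41 in Kmt2d-/- against 0.58, 0.32 and 0.55 in Kmt2d+/+ clones. The 2 mutant clones moved in opposite directions, and the difference of -1.27 (SE 0.70, edgeR adjusted p = 0.659) was -2.66 without Kmt2d-/- clone 2 and -0.08 without clone 1. Runx2, a regulator of hypertrophy and bone, had 0.76 and 0.49 in Kmt2d-/- against 1.43, 0.38 and 1.04 in Kmt2d+/+ clones. Col10a1, the type X collagen of hypertrophic cartilage, had 0.01 and 2.56 against 2.89, 0.91 and 3.38. Pth1r, the PTHrP receptor, had 2.25 and 4.41 against 4.55, 2.36 and 2.81, and Ibsp, a bone sialoprotein of mineralizing matrix, had 6.45 and 4.45 against 7.06, 1.51 and 3.94. The clones of the genotypes overlapped in all 4 (differences -0.32, -1.10, 0.10 and 1.35, edgeR adjusted p 0.773 to 0.984). Ihh, with 135 counts in its highest library, did not pass the filter on low counts.

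Gene lists of pathways and cell types were then read by their counts and medians. The 36 lists held 810 distinct genes, of which 732 were tested and 78 were too low. No list member passed in edgeR, so the counts below are of unadjusted edgeR p under 0.05, against 3.46% above and 4.86% below over all genes. Over all genes, DESeq2 called 0.692% above and 1% below, and 47.5% of differences were positive. Both Kmt2d-/- clones lay above all Kmt2d+/+ clones in 12.4% of all genes and below them in 14.4%. A list member named below for such a p or for DESeq2 was chosen after its value was seen, and the most abundant member of each list was named by rule.

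The cartilage matrix list had the largest median of the 36 lists, 1.33 over 24 tested genes against -0.02 over all genes. Of the 24, 18 were positive, 6 had p under 0.05 above (Matn4, Matn3, Ucma, Fmod, Matn2 and Matn1) and 0 below, and 1 (Matn4) passed in DESeq2. The median change of the list was 4.36 and 5.34 in Kmt2d-/- clones, against 4.22, 1.40 and 2.41 in Kmt2d+/+ clones. Kmt2d+/+ clone 1 thus stood close to the mutants and clone 2 far from them, and the list's median difference ran from 0.52 to 2.37 over the alternatives without changing sign. Matn3, another matrilin, had 4.69 and 5.05 in Kmt2d-/- against 3.18, 1.54 and 2.64 in Kmt2d+/+ clones. Matn1 had 7.47 and 9.03 against 7.16, 3.90 and 5.85, and Ucma, a Gla-rich protein of cartilage, had 6.73 and 6.52 against 5.44, 3.66 and 3.17. These 6 genes of p under 0.05 comprise all 4 matrilins. The summed level of the list was already 6330 and 1997 CPM on day 0 in Kmt2d-/- clones, against 164.1, 480.9 and 228.8 CPM in Kmt2d+/+ clones, and its part in the difference was not tested.

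The insulin and IGF axis had a median of -0.79 over its 18 genes, of which 14 were negative, 6 had p under 0.05 below and 0 above. The same 6 passed in DESeq2 (1% of all genes did so in this direction). They were Irs1, Igfbp3, Irs2, Igf1r, Pappa and Igfbp5, and the clones of the genotypes did not overlap in any of them. Over all genes 14.4% lay below without overlap, and a small p makes this likely. Irs1 (chr1:82233101-82291416), the adaptor that carries the insulin and IGF signal inside the cell, had 392.7 and 320.8 CPM on day 0 and 260.4 and 270.5 CPM on day 7 in Kmt2d-/- clones. In Kmt2d+/+ clones it had 232.2, 110.6 and 211.1 CPM on day 0 and 642.7, 232 and 549.8 CPM on day 7. Every Kmt2d-/- clone was lower and every Kmt2d+/+ clone higher at day 7 (difference -1.73, SE 0.21, edgeR adjusted p = 0.196; DESeq2 adjusted p = 3.05e-10).

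The receptor gene Igf1r had changes of -1.51 and -1.12 in Kmt2d-/- against -0.57, -0.47 and -0.64 in Kmt2d+/+ clones, and the second adaptor gene Irs2 had -2.53 and -2.08 against -0.74, -1.45 and -0.95. Both were lower at day 7 in every clone and by more in the mutant. Pappa, a protease that frees IGF from its binding proteins, had -5.85 and -3.67 in Kmt2d-/- against -2.41, -2.76 and -3.03 in Kmt2d+/+ clones. The binding protein genes Igfbp3 and Igfbp5 had -1.66 and -0.02, and -0.15 and 0.67, in Kmt2d-/- against 2.77, 1.74 and 2.28, and 4.80, 1.04 and 5.53, in Kmt2d+/+ clones. Igfbp5 is the most abundant member, and at day 0 it stood at 20020 and 14730 CPM in Kmt2d-/- against 197.7, 3667 and 113.8 CPM in Kmt2d+/+ clones. Its difference of -3.71 (SE 1.38, edgeR adjusted p = 0.571) moved from -4.90 to -2.63 when clones were left out. The list's median stayed negative in all 8 alternatives, from -1.35 to -0.45. The differentiation medium itself contains insulin, in both genotypes.

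**Figure D4:**
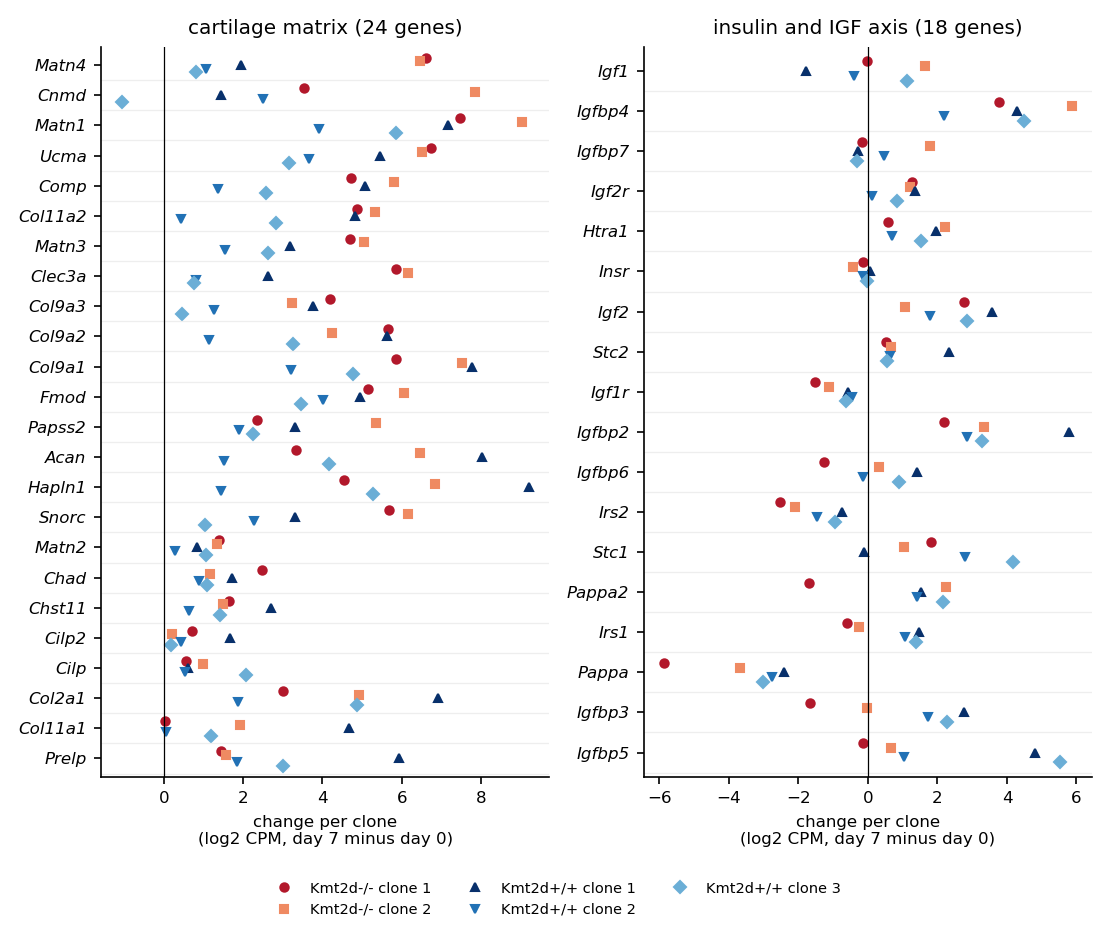
Log2 CPM change (day 7 minus day 0) of each clone for the 24 tested cartilage matrix genes (left) and 18 genes of the insulin and IGF axis (right), sorted by difference, with Kmt2d-/- clones in red and orange and Kmt2d+/+ clones in blue. In the matrix panel 18 of 24 differences are positive and in the IGF panel 14 of 18 are negative.

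The next list held CDK inhibitors, which hold back the cell cycle, and D-type cyclins and their partners, which drive entry into it. It had a median of -0.47 over 15 genes, with 11 negative (8115 of 15467 over all genes). At p under 0.05, 5 were below (Cdkn2b, Cdkn2a, Rbl2, Cdkn1b and Ccnd2) and 0 above. In 8 of the 15 both Kmt2d-/- clones lay below all Kmt2d+/+ clones, as in 14.4% of all genes. Cdkn2b, an inhibitor of CDK4 and CDK6, had 107 and 85.9 CPM on day 0 and 40.03 and 65.3 CPM on day 7 in Kmt2d-/- clones, against 38.8, 53.5 and 44.02 CPM on day 0 and 78.9, 89.4 and 105.5 CPM on day 7 in Kmt2d+/+ clones. It was lower at day 7 in both mutant clones and higher in all wild-type clones (difference -1.91, SE 0.34, edgeR adjusted p = 0.343; DESeq2 adjusted p = 0.000189). Cdkn2a, which shares that locus, had 0.28 and 0.23 in Kmt2d-/- against 0.91, 0.80 and 0.85 in Kmt2d+/+ clones and passed in DESeq2 too (adjusted p = 0.00318).

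The genes of S phase and of G2 and M phase had a positive difference in 29 of 37 and 31 of 41 genes, against 47.5% of all genes, but the clones of a genotype did not stand together. The median change of 37 S phase genes was 0.25 and -0.63 in Kmt2d-/- clones, against -0.58, 0.00 and -0.46 in Kmt2d+/+ clones, and that of 41 G2 and M phase genes was 0.26 and -0.36 against -0.33, 0.01 and -0.16. Kmt2d-/- clone 1 and Kmt2d+/+ clone 2 had the higher values and the other 3 clones the lower ones. The list medians of 0.14 and 0.10 turned negative without Kmt2d-/- clone 1 and without Kmt2d+/+ clone 1, and no member of either list had p under 0.05. The most abundant members, Mcm2 and Top2a, had differences of 0.13 each (edgeR adjusted p = 0.894 for both).

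Among transcription factors of chondrogenesis the median was -0.24 over 20 genes, with 2 of p under 0.05 in each direction. Prrx2, a paired-related homeobox gene of limb mesenchyme, had -1.05 and -0.13 in Kmt2d-/- against 1.21, 0.58 and 1.12 in Kmt2d+/+ clones and passed in DESeq2 (adjusted p = 0.00697). Its more abundant relative Prrx1 had -0.18 and 0.11 against 0.15, 0.30 and 0.57 (edgeR adjusted p = 0.656). The Hox list (27 genes) had a median of -0.19 and 4 genes below, Hoxd3, Hoxb3, Hoxd13 and Hoxb5, with Hoxb9 as the most abundant at -0.31 (edgeR adjusted p = 0.663). The 18 genes of H3K4 methyltransferase complexes had a median of 0.06 and no member of p under 0.05, and the median turned negative without Kmt2d-/- clone 1. Its most abundant member, Hcfc1, had -0.31 and -0.69 in Kmt2d-/- against -0.69, -0.39 and -0.39 in Kmt2d+/+ clones.

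Signalling lists had medians between -0.24 and -0.06. The median was -0.16 for TGF-beta and activin (23 genes, 0 above and 4 below), -0.23 for BMP and GDF (28 genes, 2 and 2), -0.09 for FGF (19 genes, 1 and 2), -0.06 for Wnt (30 genes, 2 and 1), -0.08 for hedgehog and PTHrP (15 genes, 0 and 2) and -0.24 for Notch (12 genes, 0 and 0). The medians of FGF and Wnt changed sign in 3 and 4 of the 5 fits that left out a clone. DESeq2 called 4 genes of these lists, all ligand or receptor genes, against 1.69% of all genes. They were 1 of 23 for TGF-beta and activin, 1 of 19 for FGF and, in each direction, 1 of 30 for Wnt. The ligand gene Tgfb3 had -0.70 and -0.73 in Kmt2d-/- against -0.13, -0.02 and -0.01 in Kmt2d+/+ clones, and the ligand gene Wnt9a, known from joint formation, had -2.42 and -2.54 against -1.27, -1.32 and -1.15. The receptor gene Fgfr3, known to limit bone elongation, had 1.83 and 3.44 in Kmt2d-/- against 1.22, -0.45 and 0.69 in Kmt2d+/+ clones, and the Wnt receptor gene Fzd4 had 2.16 and 2.14 against -0.67, 0.70 and -0.31. Both ligands were lower and both receptors higher in change in the mutant (DESeq2 adjusted p 0.00491 to 0.0457). These 4 genes were picked for passing, so this describes them and not the lists. The most abundant members had small differences that did not pass in edgeR, at 0.20 for the secreted follistatin-like gene Fstl1, 0.47 for the matricellular gene Ccn2, 0.54 for Fgfr1, 0.17 for Ctnnb1 (beta-catenin), -0.18 for Smo and -0.33 for Notch2 (edgeR adjusted p 0.654 to 0.902).

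The 3 lists of matrix genes kept apart from the cartilage matrix list had medians near 0. All 3 medians changed sign when 1 clone was left out (Kmt2d-/- clone 1 or Kmt2d+/+ clone 1 for collagens, Kmt2d-/- clone 2 for proteoglycans and Kmt2d-/- clone 1 for proteases). The fibrillar and basement collagens had a median of -0.06 over 20 genes, with Col16a1 and Col27a1 above and Col18a1 and Col15a1 below at p under 0.05. Col27a1, a fibrillar collagen of growth plate cartilage, had 30.9 and 6.33 CPM on day 0 and 366.6 and 355.3 CPM on day 7 in Kmt2d-/- clones, against 19.2, 21.4 and 20.6 CPM on day 0 and 75.8, 10.0 and 28.0 CPM on day 7 in Kmt2d+/+ clones. Its changes of 3.57 and 5.8 in Kmt2d-/- clones stood above 1.98, -1.09 and 0.44 in Kmt2d+/+ clones (DESeq2 adjusted p = 0.0379, edgeR adjusted p = 0.435). Col18a1, a basement membrane collagen, had -0.31 and -0.33 in Kmt2d-/- against 1.19, 1.47 and 1.28 in Kmt2d+/+ clones, and Col1a2, the most abundant, had -0.52 and 0.19 against 0.40, -0.32 and 0.16. The small leucine-rich and cell surface proteoglycan list (22 genes, 2 above and 1 below) had a median of 0.07. In it the matrix glycoprotein gene Tnc, with -0.03 and 0.83 in Kmt2d-/- against -1.27, -1.66 and -0.82 in Kmt2d+/+ clones, passed in DESeq2 (adjusted p = 0.00202), and the abundant Bgn (biglycan) had a difference of 0.15. Of 22 matrix proteases and inhibitors 3 were above and 0 below, with a median of -0.08. They were Adam12, Adamts9 and the membrane-bound Mmp15, which had 1.00 and 0.44 in Kmt2d-/- against -0.78, -0.68 and -0.83 in Kmt2d+/+ clones, while the inhibitor gene Timp2 had -0.86 and -0.66 against -0.39, -0.50 and -0.38.

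Genes of collagen folding and ER stress, counted as 1 list, had a median of 0.34 over 34 genes, with 27 positive, 6 of p under 0.05 above and 0 below. P4hb, a subunit of prolyl 4-hydroxylase, had 0.60 and 1.10 in Kmt2d-/- against 0.18, 0.03 and 0.03 in Kmt2d+/+ clones, and the lysyl hydroxylase gene Plod2 had 0.50 and 0.90 against 0.05, -0.16 and -0.07. Both passed in DESeq2 (adjusted p = 0.0387 and 0.0253). The median change was 0.15 and 0.81 in Kmt2d-/- against 0.20, 0.04 and 0.03 in Kmt2d+/+ clones, and the list's median difference became -0.13 without Kmt2d-/- clone 2.

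Hypoxia and glycolysis genes had a median of 0.32 over 31 genes, with 24 positive, 6 above (Egln1, Slc2a1, Hk2, Eno1, Egln3 and Pgk1) and 3 below (Car9, Pfkfb4 and Ndrg1). The glucose transporter gene Slc2a1 had 0.61 and 0.94 in Kmt2d-/- against 0.26, 0.15 and -0.01 in Kmt2d+/+ clones, and Gapdh had 0.52 and 0.43 against 0.21, 0.34 and -0.30. Car9, a carbonic anhydrase that responds to low oxygen, had the other sign, with 1.51 and 4.27 in Kmt2d-/- against 4.76, 6.40 and 4.21 in Kmt2d+/+ clones, and the genotypes overlapped there. Oxidative phosphorylation genes had a median of 0.22, and in 15 of 33 both Kmt2d-/- clones lay above all Kmt2d+/+ clones, against 12.4% of all genes. All 35 cytosolic ribosomal protein genes had a positive difference (median 0.40, 3 of p under 0.05 above), against 47.5% of all genes. The median change of the ribosomal list was 0.51 and 0.14 in Kmt2d-/- against 0.18, -0.09 and -0.34 in Kmt2d+/+ clones, so Kmt2d-/- clone 2 lay within the range of the Kmt2d+/+ clones. Reads of ribosomal genes can be split with their pseudogenes. The most abundant members, Atp5b and Rps2, had differences of 0.43 and 0.20 (edgeR adjusted p = 0.603 and 0.8), and the 25 genes of cholesterol and fatty acid synthesis had a median of -0.12 with 0 above and 2 below (Scd2, the most abundant, at 0.30), and the median turned positive without Kmt2d-/- clone 1 and without Kmt2d+/+ clone 2.

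The interferon response had the most negative median, -1.42 over 38 genes, with 34 negative and 6 of p under 0.05 below. The clones of a genotype spread widely. The median change was 0.94 and 2.12 in Kmt2d-/- clones, against 0.98, 4.33 and 3.24 in Kmt2d+/+ clones. Kmt2d+/+ clone 1 stood with the mutants, and the list's median difference ran from -2.18 to -0.62 over the alternatives. Ifit2, an interferon-induced RNA-binding protein gene, passed in DESeq2 (adjusted p = 0.00189) with -0.01 and 0.05 in Kmt2d-/- against 0.91, 1.57 and 1.32 in Kmt2d+/+ clones. Xaf1, the most abundant member, had -0.36 and 1.13 against 1.00, 1.32 and 2.35. Chemokines and cytokines had a median of -0.43 (17 genes, 0 above and 2 below), with Cxcl12 at -2.17 and -0.78 in Kmt2d-/- against -0.66, -0.36 and -0.19 in Kmt2d+/+ clones, and Cx3cl1 passed in DESeq2 (adjusted p = 0.0394, difference -0.97). Immediate early and AP-1 genes had a median of -0.39 (22 genes, 1 above and 1 below, Fosl2 at 0.04), and p53 targets -0.01, above 0 with the size factors of DESeq2 and without Kmt2d-/- clone 1, Kmt2d+/+ clone 2 or Kmt2d+/+ clone 3 (17 genes, 0 and 1), of which Perp passed in DESeq2 at -2.09 and Plk2 was at 0.40.

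The mineralization and bone lists gave no uniform direction. Hypertrophic and mineralizing chondrocyte genes had a median of -0.32 over 21 genes, which became 0.01 without Kmt2d+/+ clone 1, with 1 above (Enpp1, which makes pyrophosphate) and 0 below. Alpl, the alkaline phosphatase that removes it, had 0.84 and 1.52 in Kmt2d-/- against 1.81, 0.89 and 0.18 in Kmt2d+/+ clones. Osteoblast markers had a median of 1.05 over 11 genes, 6 positive and 5 negative, with Bglap2 and Cthrc1 among those above at p under 0.05. Reads of Bglap2 can be split with its near-identical copies. The most abundant, the bone regulator gene Sp7, had the other sign, at 0.47 and 0.29 in Kmt2d-/- against 2.03, 0.69 and 0.93 in Kmt2d+/+ clones (edgeR adjusted p = 0.617).

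**Figure D5:**
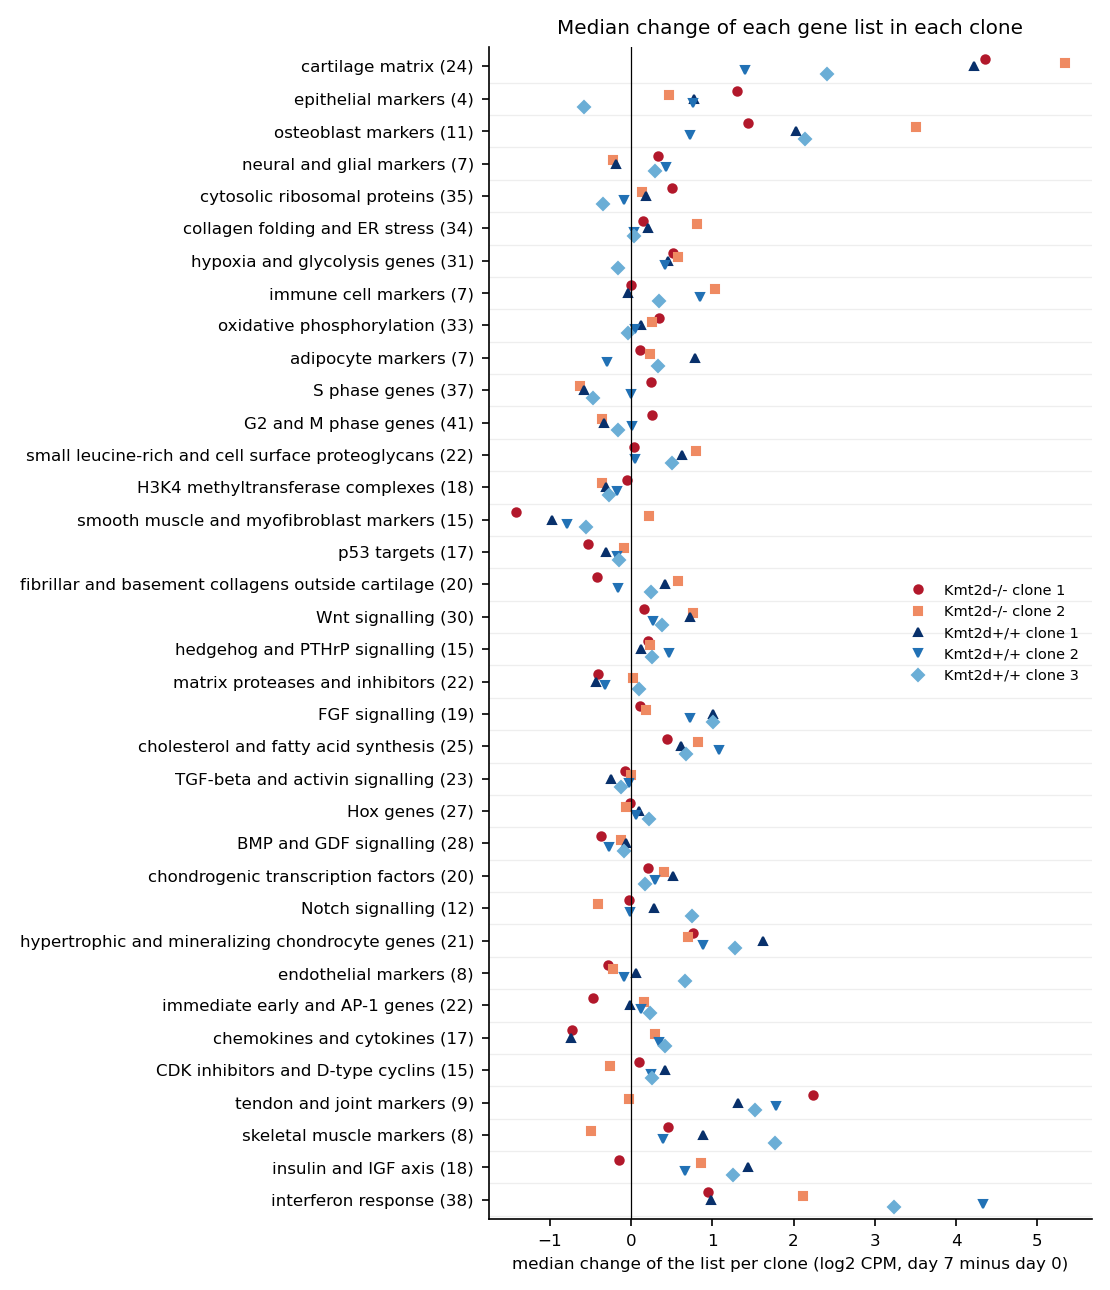
Median log2 CPM change (day 7 minus day 0) of each of 36 gene lists in each clone, sorted by median difference, with the number of tested genes in brackets, Kmt2d-/- clones in red and orange and Kmt2d+/+ clones in blue. The cartilage matrix list is the one with all clones above 1, and the interferon list, at the bottom, runs from 0.94 to 4.33.

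None of the markers of other cell types passed in edgeR or DESeq2, and their part in the results above was not tested. Myog and Ckm of skeletal muscle and Olig2 of glia had no counts in any of the 10 libraries. Summed levels at day 7 were 21.2 and 11.4 CPM in Kmt2d-/- against 4.97 to 14.6 CPM in Kmt2d+/+ clones for 8 tested skeletal muscle markers, 6.73 and 17.9 against 14.4 to 31.4 CPM for 7 immune markers, and 1.40 and 1.32 against 1.00 to 2.04 CPM for 4 epithelial markers. They were 57.8 and 39.5 against 17.3 to 18.8 CPM for 8 endothelial markers, mostly from Erg, which has 45.3 and 29.2 CPM in Kmt2d-/- against 0.796 to 3.85 CPM in Kmt2d+/+ clones. Erg is also known in articular chondrocytes, and the endothelial markers Cdh5, Emcn and Cldn5 had at most 10 counts in any library. For 7 adipocyte markers the sum was 91.6 and 76.6 against 80.2 to 192.9 CPM, and for 7 neural and glial markers 54.6 and 61.1 against 30.0 to 102.4 CPM.

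Medians of the difference, which for immune, epithelial, adipocyte and neural markers changed sign when 1 clone was left out, were -0.74 for skeletal muscle, 0.28 for immune, 1.06 for epithelial, -0.38 for endothelial, 0.16 for adipocyte and 0.55 for neural and glial markers. The most abundant members were Tnni2, Laptm5, Cdh1, Erg, Lpl and Map2, with differences of 1.70, -0.17, -1.29, 2.19, 0.41 and -0.40 (edgeR adjusted p 0.659 to 0.985). When 1 clone was left out these ran from 0.96 to 5.37 for Tnni2, from 1.24 to 3.75 for Erg and from -1.79 to -0.62 for Cdh1. Smooth muscle and myofibroblast markers were abundant in all clones, at 3380 and 3660 CPM in Kmt2d-/- against 5554 to 7365 CPM in Kmt2d+/+ clones at day 7. At day 0 these markers summed to 12910 and 5228 CPM in Kmt2d-/- against 11490 to 14770 CPM in Kmt2d+/+ clones. Their median difference was 0.02 over 15 genes and changed sign in 4 of 8 alternatives, with 0 of p under 0.05 in either direction and the abundant Postn at -0.92 (edgeR adjusted p = 0.601). Tendon and joint markers had a median of -0.57 over 9 genes, 8 of them negative. Scx, the tendon transcription factor, had -0.72 and -0.59 in Kmt2d-/- against 1.07, -0.15 and 0.89 in Kmt2d+/+ clones (difference -1.26, SE 0.39, edgeR adjusted p = 0.514).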

How the data were processed

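The authors deposited estimated counts per gene, not normalized, in 20 columns (1 per library and flow-cell run), for which the submitters' processing notes name Salmon, edgeR, limma, DESeq2 and build GRCm38. Tool versions, annotation and strand use were not given in the sources used here, so reads of overlapping or antisense genes cannot be told apart. The 2 runs of each library (r = 0.996 to 0.998) were summed and rounded to whole numbers. Of 27911 genes, 15467 passed filterByExpr.

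The main test was edgeR 4.0.16 (R 4.3.3) with TMM scaling, a term for each of the 5 clones, a day term and an additional day term for Kmt2d-/- clones (3 residual degrees of freedom), the quasi-likelihood F test and Benjamini-Hochberg adjustment at 0.05. It was run on simulated counts with known changes, where it missed part of the changed genes and made a few false calls. The simulated spread followed the trend over genes, and only genes with high counts were changed. The simulation thus does not measure how many differences are missed in these data. An absence of calls does not show an absence of differences. Clones are paired by cell line, and their day 0 and day 7 deviations from the group means correlated with 0.363 to 0.571. Log2 CPM used a prior count of 2. DESeq2 1.42.0 and limma 3.58.1 were alternatives. Exact permutation tests were two-sided over clones.

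Symbols came from a gene-name table matched by Ensembl identifier (481 genes had none), and coordinates from the GENCODE vM21 annotation of GRCm38. By rule, the text names fixed chondrogenic genes, 10 genes per direction with the smallest p (none passed), required to reach a group mean of 5 CPM, to have no predicted-gene name and to show non-overlapping clones, and the most abundant member of each list. Lists and members were chosen with earlier results of these data known. P-values rest on clones, and depth limits low genes.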

Additional observations from a re-analysis of the deposited data

Results flagged for a closer look

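Among the 64 genes named by rule (the fixed genes, the 20 with the smallest p and the most abundant member of each list), 4 had a change in one direction in both Kmt2d-/- clones and in the other direction in all 3 Kmt2d+/+ clones. The differences of changes were 2.24 for Prkg2, 2.44 for Efna5, -1.73 for Irs1 and 0.425 for Atp5b on the log2 scale. The interaction term tested each difference, and none passed in edgeR (adjusted p 0.157 to 0.603). Over all tested genes, 2.13% were higher at day 7 in both Kmt2d-/- clones and lower in all Kmt2d+/+ clones, and 2.75% the other way. Prkg2, Efna5 and Irs1 are among the 20 with the smallest p, for which non-overlapping clones were required. The rule thus favoured this pattern.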

How the results depend on the processing

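The 0 calls of edgeR also held without a replicate block (0 calls, 568 genes at an unadjusted p under 0.05), under other scalings and filters, in limma and without any one clone. DESeq2 called 262 (107 above and 155 below), and flow-cell run 1 alone called 1 in edgeR, Lsp1, above. A newer edgeR fit, chosen after seeing the data, called 0. The mean r of unlike genotypes was 0.546, and 0.658 with a mean of at least 5 CPM.

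None of the 20 genes named by p changed sign. Of 1085 values of 64 named genes under the alternatives, 40 did. The naming rule for the 20 required non-overlapping clones and took the smallest p, so leaving out 1 clone could hardly reverse them. The contrast with the other named genes was thus set by the rule. Without 1 clone, the lowest and highest values were -1.87 to 0.62 for Col2a1, -0.82 to 2.58 for Acan, -2.39 to 0.17 for Col10a1, -0.98 to 1.19 for Pth1r, -0.034 to 2.70 for Ibsp, -0.15 to 0.65 for Alpl, -0.49 to 0.88 for Fstl1, -0.40 to 1.34 for Ccn2, -0.059 to 0.39 for Ctnnb1, -0.21 to 0.18 for Hcfc1, -0.11 to 0.36 for Mcm2, -0.22 to 0.48 for Top2a, -0.60 to 0.11 for Col1a2, -0.17 to 0.45 for Bgn, -0.42 to 0.49 for Fosl2, -1.77 to 2.19 for Laptm5, -0.90 to 0.032 for Map2, -0.071 to 0.86 for Plk2. Outside these, Pth1r was -0.77 with no replicate block and -0.0022 in limma-voom, Laptm5 0.71, 0.23, 1.27 and 0.26 with no replicate block, limma-voom, run 2 and the newer fit, Hcfc1 0.0074 in DESeq2, 0.0075 with its size factors, 0.017 with no filter and 0.053 in run 1, and Fosl2 -0.027 in run 1. The cause was not tested. Genes near 0 CPM rest on few counts, and their log2 changes depend on the prior count.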

Other observations

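Lsp1, named for its p, lies in a stretch of chromosome 7 where neighbouring genes also had a higher change in Kmt2d-/- clones. Within 200 kb of it, 7 other genes were tested and 6 had a positive difference. In all 6 both Kmt2d-/- clones lay above all Kmt2d+/+ clones, as did 12.4% of all genes. From the start of the stretch, with Lsp1 in its place, the differences were those of Ifitm10 (1.97), the cathepsin D gene Ctsd (0.95), the synaptotagmin gene Syt8 (4.52), the troponin I gene Tnni2 (1.70), Lsp1 (3.59), the troponin T gene Tnnt3 (5.74) and Mrpl23 (0.57). The next tested gene, Igf2, had -0.44 with overlapping clones. Lsp1, Ctsd and Ifitm10 passed in DESeq2 (adjusted p = 2.97e-13, 0.00227 and 0.00461), and none passed in edgeR. Syt8, Tnni2, Tnnt3 and Mrpl23 did not pass in DESeq2 (adjusted p = 0.189, 0.763, 0.431 and 0.743). Tnni2 had 0 to 0.0966 CPM on day 0, and its difference ran from 0.96 to 5.37 when 1 clone was left out. The window was looked at after the value of Lsp1 was seen, and strand use in counting is not given in the sources used here, so reads of genes that overlap or adjoin may be shared.

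Syt8 had 0.290 and 0 CPM on day 0 and 75.1 and 15.4 CPM on day 7 in Kmt2d-/- clones, against 0.143, 1.37 and 0.0211 CPM on day 0 and 4.52, 10.5 and 1.5 CPM on day 7 in Kmt2d+/+ clones. Ctsd, a lysosomal protease gene, had 368.9 and 328.1 CPM on day 0 and 1074 and 699.8 CPM on day 7 in Kmt2d-/- clones, against 271, 389.4 and 263.2 CPM on day 0 and 393.2, 481.8 and 316.5 CPM on day 7 in Kmt2d+/+ clones. Both were higher at day 7 in every clone.

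From earlier results on these libraries, 3 chromosome segments had been picked for higher levels in Kmt2d-/- clones on both days. Picking for a gap on both days favours a difference of changes near 0, so the medians are only a description. In these segments the median difference of changes was close to the -0.02 of all genes. It was -0.05 over 374 genes of chromosome 12 from 40 Mb on, 0.06 over 159 genes in the first 20 Mb of chromosome 7 and -0.05 over 306 genes in the first 60 Mb of chromosome 13.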
